A study of Mus musculus with 6 samples.

Results

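Mbp, Mobp, Mag, Mog, Cnp and Cldn11, 6 genes that encode proteins of the myelin sheath of the central nervous system, were followed through single cells of the mouse spinal cord. They were taken as a list of central myelin genes by name and not by a threshold on their values, and are 6 of the 18792 genes in the deposited table. The table holds 13614 cells from WT mice and from Nd6 mice, which carry the ND6-P25L point mutation in the mitochondrially encoded complex I gene mt-Nd6. The labels list 6 libraries: 1 of control WT mice, 1 of control Nd6 mice, 2 of EAE WT mice and 2 of EAE Nd6 mice. EAE (experimental autoimmune encephalomyelitis) had been induced with the MOG peptide 35 to 55, and cells were taken at day 30 after immunization, as far as the study's text states it. The EAE mice were females of 8 to 20 weeks at induction, and the non-immunized healthy controls included both sexes. How many animals a library held is not given in the sources used here. All mice were perfused with the transcription inhibitors actinomycin D and triptolide, and debris was removed from the suspension before the cells were loaded.

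Myelin is the membrane that oligodendrocytes wrap around axons. Mbp encodes myelin basic protein, which holds the inner faces of the membrane together, and Mobp encodes a small basic protein of the same compartment. The mRNAs of Mbp and Mobp are known to be carried along the processes of the oligodendrocyte and translated near the sheath. Mag encodes an adhesion protein on the side of the sheath that faces the axon. Mog encodes a glycoprotein of the outermost sheath, and a peptide of it was the antigen of the immunization. Cnp encodes an enzyme of the non-compacted myelin, and Cldn11 encodes the claudin of the tight junctions between its layers. Microglia and macrophages take up myelin debris after demyelination, and RNA that leaks from damaged cells or sheaths enters every droplet of a single-cell experiment. The Mbp locus also encodes longer golli forms that are known from immune cells, and a value per gene cannot tell the forms apart.

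In the annotation of the GRCm38 build, all 6 are protein-coding genes. Mbp lies on chromosome 18 at 82475146 to 82585637 (plus strand) and spans 110.5 kb. Mobp lies on chromosome 9 at 120149707 to 120181484 (plus strand), Mag on chromosome 7 at 30899176 to 30914873 (minus strand) and Mog on chromosome 17 at 37010743 to 37023398 (minus strand). Cnp lies on chromosome 11 at 100574904 to 100591729 and Cldn11 on chromosome 3 at 31149920 to 31164324, both on the plus strand.

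The values are whole numbers per gene and cell. Their totals per cell lie between 687 and 1578 (median 962), so they are not raw UMI counts, and the depth of sequencing is unknown. Every cell name ends in 1 of 6 numbers, and no label ties a number to a library. The cells with 1 such number form a set, and the sets are called A to F from the largest (4633 cells) to the smallest (809 cells). They are assigned to no genotype and to no EAE or control state, and no test between sets or classes was made. A total of 18 barcodes occurred in 2 sets. Clusters were made without the 6 genes and named from markers that did not include them. The cells fell into 12 clusters, of which 747 cells (5.49%) formed an oligodendrocyte-like cluster with 28 of 28 markers at 2-fold or more over the other cells. The largest myeloid cluster (5182 cells) is called Apoe-high myeloid by a leading gene. Its leading genes also include the immunoglobulin genes Ighg1 and Igkc, so it was given no cell type name. A further 2422 cells were macrophage or monocyte-like, 2026 were homeostatic microglia-like and 304 were endothelial cell-like. A myeloid cluster of 1727 cells led by Cox6a2 stayed unnamed. The myeloid classes came from different sets. Of the Apoe-high myeloid cells, 3713 were in set A, 1001 in set C and 409 in set F. Of the macrophage or monocyte-like cells 2398 were in set B, and of the homeostatic microglia-like cells 1071 were in set D and 885 in set E. The cell class and the set therefore cannot be told apart over the pooled cells. Smaller numbers of a class in another set (57 Apoe-high myeloid cells in set B and 55 homeostatic microglia-like cells in set F) allow some comparisons within a set, and comparisons were made with the endothelial cells of the same set.

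The sequences upstream of 3 of the genes are shown because they hold the core of binding motifs of SOX proteins and of MYRF, transcription factors that are known to drive myelin genes. Promoters of 5 of the 6 genes matched the RefSeq table by symbol, in 7 rows of the GRCm38.p6 build. The motif letters searched were ACAAAG (SOX core) and CTGGCAC (MYRF core), each searched on both strands, and the motifs do not overlap each other in the lines printed. Capitals mark a match on either strand. Each line holds the 250 bases before an annotated start, 5′ to 3′ in the direction of the gene.
Mobp, chr9:120149492-120149741, plus strand: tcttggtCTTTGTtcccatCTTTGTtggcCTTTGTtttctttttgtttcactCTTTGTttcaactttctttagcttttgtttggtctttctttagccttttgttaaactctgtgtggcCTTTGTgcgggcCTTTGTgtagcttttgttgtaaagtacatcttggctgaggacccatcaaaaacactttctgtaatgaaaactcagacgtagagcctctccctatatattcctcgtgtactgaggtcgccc
Mag, chr7:30914864-30915113, minus strand: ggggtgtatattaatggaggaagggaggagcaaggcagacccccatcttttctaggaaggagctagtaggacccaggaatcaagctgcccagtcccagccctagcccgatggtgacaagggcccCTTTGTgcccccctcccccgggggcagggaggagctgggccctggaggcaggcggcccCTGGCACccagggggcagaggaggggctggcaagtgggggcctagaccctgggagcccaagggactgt
Cnp, chr11:100574689-100574938, plus strand: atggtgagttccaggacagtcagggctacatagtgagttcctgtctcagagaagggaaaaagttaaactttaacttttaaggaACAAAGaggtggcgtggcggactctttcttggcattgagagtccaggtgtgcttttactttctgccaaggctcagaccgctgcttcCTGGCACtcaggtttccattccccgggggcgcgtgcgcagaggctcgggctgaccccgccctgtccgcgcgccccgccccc
Over windows of 300 bases (250 before and 50 after the start), the SOX core was found in 18.7% of 32851 promoters and the MYRF core in 5.01%. Mobp held 6 SOX cores, and it was the only window of the 32851 with 6 or more. Cnp held 1 of each core, and so did 2 of the 3 Mag starts, whose windows overlap and share the same matches. The Mog and Cldn11 windows held neither. A match of letters is a description of the window and not evidence of binding.

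All 6 genes had their highest mean in the oligodendrocyte-like cells. At a resolution of 1.0 this did not hold for Mbp and Mobp, which were then higher in a separate cluster of 225 cells, described further on as the marker-poor part. Against all other cells their means were 3.64-fold (Mobp) to 8.12-fold (Cnp) higher, and 6 of 6 were at least 2-fold higher, where 12.3% of 3273 genes with sufficient values were. Every oligodendrocyte-like cell had a value for at least 1 of the 6 genes. Mbp was above 0 in 99.7% of the 747 cells and Mobp in 82.7%. Cnp was above 0 in 43.4% of the cells, Cldn11 in 28.2%, Mag in 27.3% and Mog in 17.3%. The exact binomial 95% intervals of these shares, which cover counting error only, were 39.8% to 47.0% for Cnp and 14.6% to 20.2% for Mog.

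The level in oligodendrocyte-like cells varied between sets. The mean Mbp value per cell was 35.6 in the lowest set, 43.2 in the median and 70.2 in the highest. For Mobp the lowest, median and highest set means were 2.77, 5.01 and 5.70. Sets C and D had the highest Mbp means (70.2 and 55.3), while their Mag means (0.440 and 0.340) were the lowest of the 6 sets. Mag was highest in set B at 0.887, where Mbp was lowest. Mog set means ran from 0.164 (set C) to 0.338 (set B), those of Cnp from 0.925 (C) to 1.48 (A), and those of Cldn11 from 0.350 (D) to 0.803 (B). The sets that were high for Mbp were thus low for Mag, Mog and Cnp, and set B stood at the opposite end for Mag, Mog and Cldn11.

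The cells within the cluster varied much more than the sets. A single oligodendrocyte-like cell had a median Mbp value of 28, and the 5th and 95th percentiles were 4.3 and 169.7, with 265 as the highest value of any cell. At a finer resolution of the clustering (1.0 in place of 0.3), which again used none of the 6 genes, the cluster split into a part with high levels of the 28 oligodendrocyte markers and a part with low levels. The marker-rich part had 520 cells with a mean marker sum of 43.5, and the marker-poor part had 224 cells with a mean marker sum of 8.64. All 6 sets contributed to both, with 19.0% (set B) to 40.3% (set C) of a set's oligodendrocyte-like cells in the marker-poor part. The values that follow describe these parts and were not tested, since the clusters were made from the same cells.

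Mbp and Mobp were high in the marker-poor part, and the other 4 genes were nearly lost from it. The mean Mbp value was 99.6 in the marker-poor and 26.1 in the marker-rich part, a ratio of 3.82. In the marker-poor part the set means of Mbp were 98.4 in A, 112.8 in B, 119.6 in C, 91.8 in D, 62.2 in E and 91.2 in F. In the marker-rich part they were 18.7 in A, 17.6 in B, 36.9 in C, 31.1 in D, 32.8 in E and 27.5 in F. The marker-poor mean was the higher in 6 of 6 sets, and the set means of the parts did not overlap. Mobp had a mean of 8.76 in the marker-poor and 2.98 in the marker-rich part, and was higher in the marker-poor part in 5 of 6 sets. The exception was set F (2.46 against 2.84), which had 13 marker-poor cells.

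Mag, Mog, Cnp and Cldn11 went the other way in 6 of 6 sets. Cnp, the enzyme gene, had a mean of 0.129 in the marker-poor and 1.80 in the marker-rich part, with a value in 10.3% against 57.7% of the cells. Cldn11 had means of 0.0670 and 0.802, Mag of 0.0982 and 0.808, and Mog of 0.0446 and 0.335. Between the parts, 57.1% of 2293 genes were at least 2-fold lower in the marker-poor part, with a median ratio of 0.444, and 1.92% were at least 2-fold higher. Of the 6 myelin genes, 4 were among the lower and 2 among the higher, with Mog counted through its mean in the marker-rich part alone. Where both means had to reach 0.05, 3 of 5 members were at least 2-fold lower, as were 31.3% of 1040 genes. The ratios of the 4 lower genes ran from 0.0721 (Cnp) to 0.133 (Mog), all below the median gene. The median number of genes with a value was 267 in the marker-poor and 397.5 in the marker-rich part, while the median totals were 839 and 850.0.

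**Figure D1:**
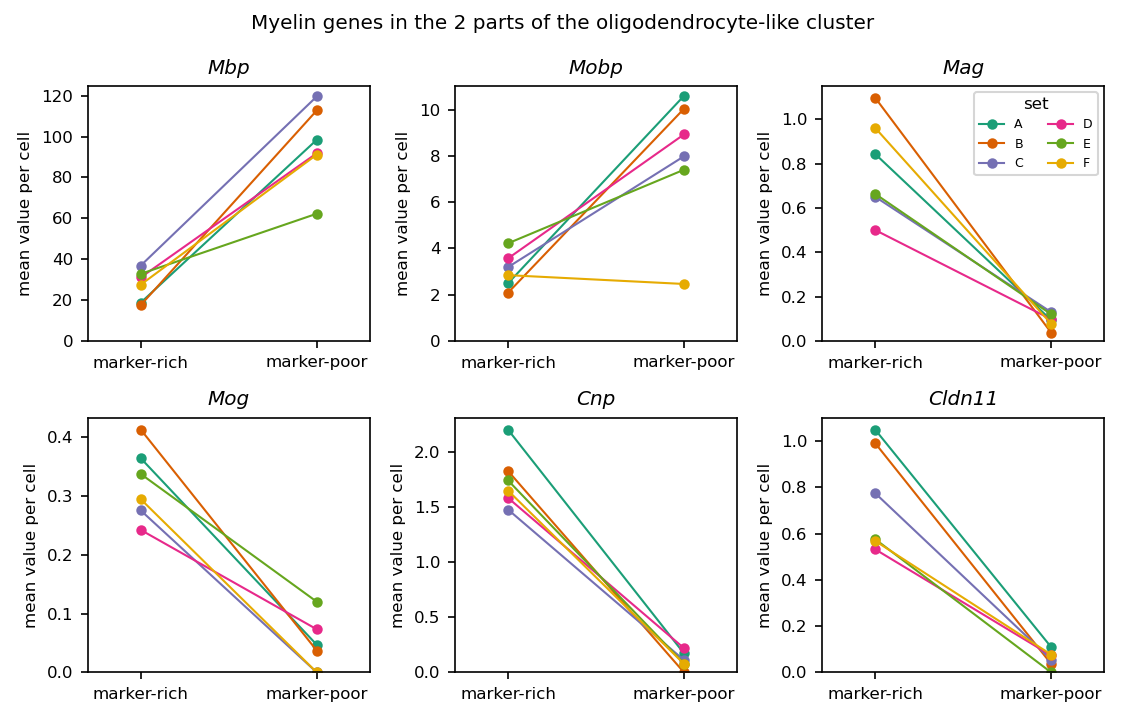
Mean value per cell of each of the 6 myelin genes (y axes, each from 0) in the marker-rich and marker-poor parts of the oligodendrocyte-like cluster (x axes), with 1 line for each set of cells A to F. Mbp rises from marker-rich to marker-poor in 6 of 6 sets and Mobp in 5 of 6, whereas Mag, Mog, Cnp and Cldn11 fall in 6 of 6.

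The other genes of the myelin programme were mostly low in the marker-poor part. Of a list of 28 other myelin and oligodendrocyte genes, which is also the list that named the cluster and its parts, 27 were at least 2-fold lower there and 0 at least 2-fold higher. The remaining one was Olig2, at 0.0134 against 0.0192. Myrf, which encodes a transcription factor of myelination, had means of 0.0134 in the marker-poor and 0.0750 in the marker-rich part. Of 22 genes of sterol and lipid synthesis, 20 were at least 2-fold lower in the marker-poor part. The others were Scd1, a fatty acid desaturase, at 0.406 against 0.292 and Elovl1, a fatty acid elongase, at 0.0179 against 0.0231. No minimum mean was set for these list counts, whereas 57.1% of 2293 genes with 1 mean of at least 0.05 were 2-fold lower. Genes other than Mbp and Mobp with the highest ratios of marker-poor to marker-rich means, named after their values were seen, were Hbb-bs (10.2), Trp53inp2 (7.08), Oxsr1 (6.09), Pkp4 (5.56) and Trak2 (5.51). Gfap, the intermediate filament gene of astrocytes, had a ratio of 4.59, and Bcas1, known from newly forming oligodendrocytes, one of 3.56. Hbb-bs is a haemoglobin gene of red blood cells. Its mean was 2.96 in the marker-poor and 0.290 in the marker-rich part, while the share of cells with a value was 20.1% and 18.1%. The summed level of 16 markers of disease-associated microglia was 26.6 in the marker-poor and 26.1 in the marker-rich part, and that of 15 astrocyte markers was 0.719 and 0.771. The sum of 10 markers of fibroblasts or meningeal cells was 0.746 and 3.85. The part of RNA from other cells in the difference was not tested.

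Outside the oligodendrocyte-like cluster, 96.0% of 12867 cells had a value for at least 1 of the 6 genes. The exact 95% interval of 95.7% to 96.3% covers counting error only. The shares by set ran more widely, from 92.6% (F) to 98.7% (E). The cells outside the cluster held 77.1% of all Mbp value in the table and 68.0% of all Cnp value. Mbp was above 0 in 94.8% of them with a mean of 9.42, and Mobp in 61.1% with a mean of 1.29. The other 4 genes were each above 0 in between 5.60% (Mog) and 14.1% (Cnp) of the cells. A value of 3 or more of the 6 genes in the same cell was found in 23.5% of the cells outside the cluster and in 56.8% of the oligodendrocyte-like cells. When each cell was thinned to the lowest total of the table (687), these shares became 14.8% and 50.1%. All 6 genes together had a value in 39 oligodendrocyte-like cells and in 2 of the 12867 others.

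**Figure D2:**
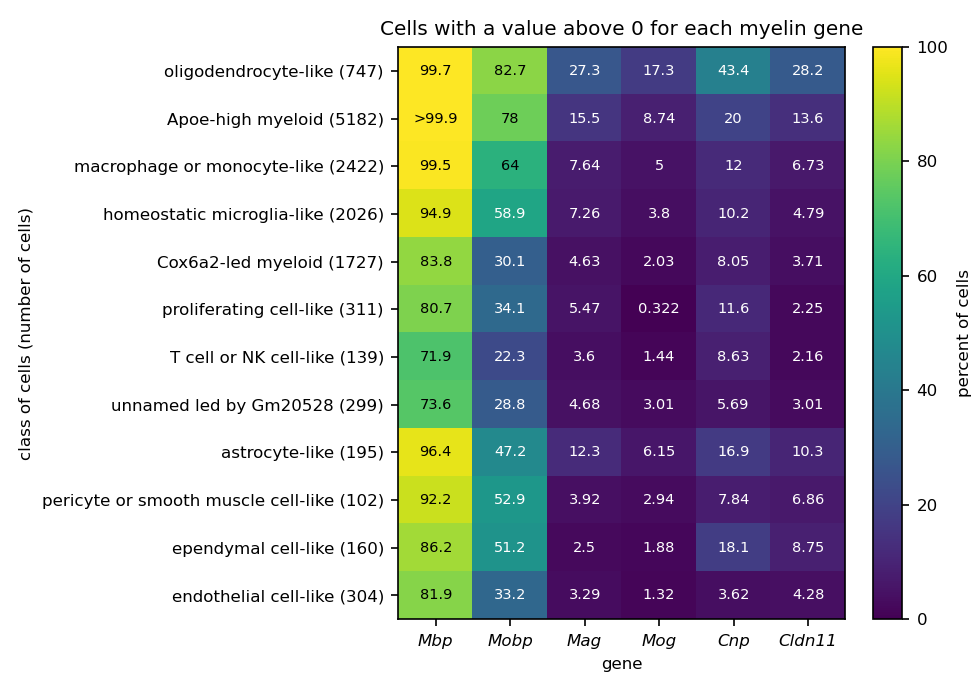
Percent of cells with a value above 0 (colour and number) for each of the 6 myelin genes (x axis) in each class of cells (y axis, number of cells in brackets), all sets pooled. Mbp is above 0 in 71.9% or more of the cells of every class, whereas Mog stays at or below 8.74% outside the oligodendrocyte-like class.

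Mbp levels outside the cluster ran over a wide range of classes. After the oligodendrocyte-like mean of 48.1 came Apoe-high myeloid (12.8), astrocyte-like (12.5), pericyte or smooth muscle cell-like (10.7), macrophage or monocyte-like (8.99) and homeostatic microglia-like cells (7.79). Ependymal (5.04), proliferating (5.01), endothelial (4.90) and Cox6a2-led myeloid cells (4.8) lay close together, and T cell or NK cell-like cells were lowest at 3.19. Among sets with at least 20 cells of a class, the set means were 9.46 to 15.1 in Apoe-high myeloid cells and 8.0 to 12.4 in astrocyte-like cells, so these neighbours overlapped. Those of endothelial cells were 2.68 to 5.58 and those of T cell or NK cell-like cells 3.0 to 4.04, which also overlapped. The oligodendrocyte-like set means lay above all of these. The astrocyte-like cluster was the class with the highest mean of each of the 3 peripheral myelin genes in the table, so it was not purely astrocytic.

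**Figure D3:**
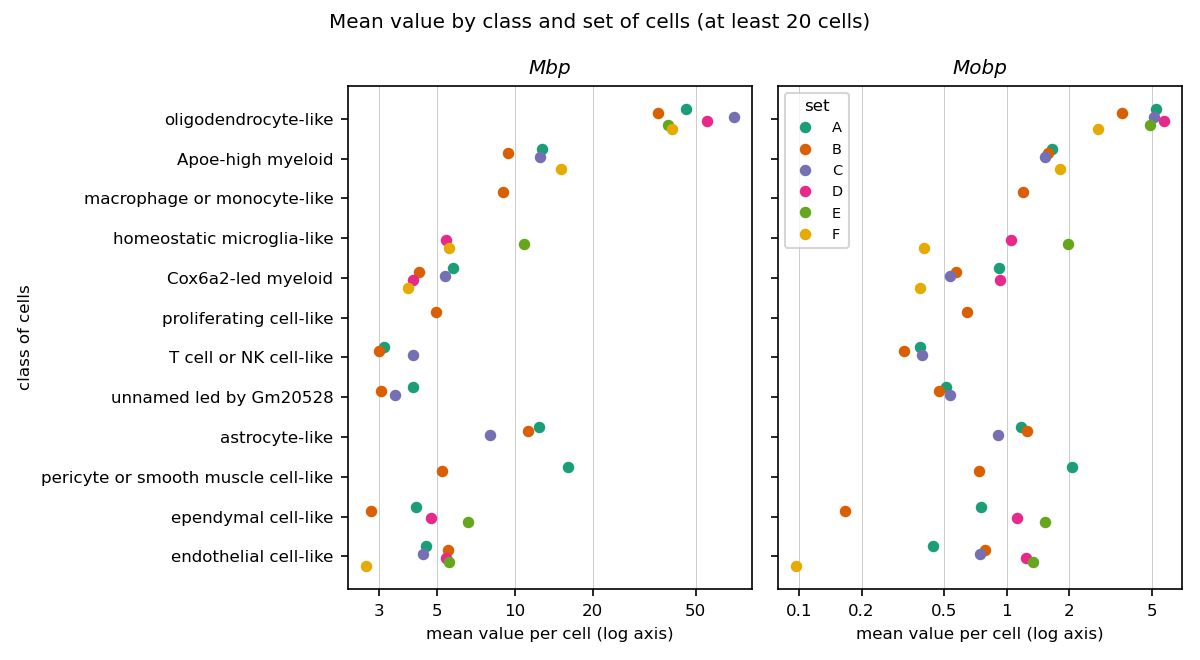
Mean value per cell (x axes, log scale) of Mbp and Mobp in each class of cells (y axis), with 1 point for each set A to F that held at least 20 cells of the class. For Mbp the oligodendrocyte-like points lie between 35.6 and 70.2, and the highest point of any other class is 16.1.

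Within 4 sets, Apoe-high myeloid cells could be compared with the endothelial cells of the same set, which are not known to make these transcripts, and Mbp and Mobp were higher in the Apoe-high cells in each. In set A the mean Mbp value was 12.7 in 3713 Apoe-high myeloid cells and 4.56 in 61 endothelial cells, and in set C it was 12.5 and 4.41. In set F it was 15.1 in 409 Apoe-high myeloid cells and 2.68 in 31 endothelial cells. In set B it was 9.46 in 57 Apoe-high myeloid cells and 5.53 in 66 endothelial cells, a smaller ratio (1.71) than in set A (2.79), C (2.83) or F (5.66). Genes were counted where their mean was at least 0.05 in both groups, since a gene that passes through the higher group alone has to differ. In set A, 5 of 5 such members were at least 2-fold higher in the Apoe-high myeloid cells, by 2.55-fold (Cldn11) to 3.74-fold (Mobp), where 10.9% of 1977 genes were. In set C both Mbp and Mobp were, where 10.3% of 1404 genes were, and in set F both again, where 7.48% of 2127 genes were. In set B 1 of 3 was (Mobp, 2.00-fold), where 7.95% of 1647 genes were, and Cldn11 was lower than in the endothelial cells (0.0526 against 0.0909). In set F, Mag, Mog, Cnp and Cldn11 each had a value in 0 of 31 endothelial cells, which allows a share of up to 9.68% (3 cells of 31). Median totals were 1118 and 922 in set A, 791 and 848 in set C, and 1039 and 1087 in set F.

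In the macrophage or monocyte-like and homeostatic microglia-like cells the ratios of Mbp to the endothelial cells were between 0.994 and 2.09. All were below the Apoe-high myeloid ratios of sets A, C and F. The ratios of homeostatic microglia-like cells in sets E and F were above the Apoe-high myeloid ratio of 1.71 in set B. In set B the mean Mbp value was 8.98 in macrophage or monocyte-like cells and 5.53 in endothelial cells, a ratio of 1.62, close to the 1.71 of the Apoe-high myeloid cells of that set. Of the 3 members with both means at 0.05 or more, 0 were at least 2-fold higher, where 9.9% of 1969 genes were. In set D the means were 5.42 in homeostatic microglia-like and 5.45 in endothelial cells, and 0 of 5 members were at least 2-fold higher, where 13.2% of 1941 genes were. In set E they were 10.9 and 5.58, a ratio of 1.95, and 0 of 2 were, where 11.9% of 1909 genes were. In set F the mean Mbp value was 5.6 in 55 homeostatic microglia-like cells, 2.09-fold that of the endothelial cells and below the 15.1 of the Apoe-high myeloid cells of the set. Mbp and Mobp were both at least 2-fold higher there, where 13.1% of 2026 genes were. Members below 0.05 in the endothelial cells did not follow the order of Mbp. Mag was at 0.0817 against 0.0152 in set B, a ratio of 5.39, and Cnp at 0.0960 against 0.0135 in set E, a ratio of 7.11, beside 2.77 and 3.65 for these genes in set A. The number of endothelial cells per set was 31 to 74, so such means rest on few values.

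Over all sets pooled, shares of cells followed the order of the Mbp means among the myeloid and endothelial classes listed below, although these come from different sets. Other classes broke this order. For example, 3 or more of the 6 genes had a value in 16.9% of ependymal but 13.7% of homeostatic microglia-like cells, the latter with the higher Mbp mean. Mobp was above 0 in 78.0% of Apoe-high myeloid, 64.0% of macrophage or monocyte-like, 58.9% of homeostatic microglia-like and 33.2% of endothelial cells. Median totals in these classes were 1062, 905.5, 950.5 and 999.5, and after thinning the shares were 65.4%, 54.4%, 49.1% and 27.0%. Mag was above 0 in 15.5%, 7.64%, 7.26% and 3.29% of these cells in the same order, and Mog in 8.74%, 5.0%, 3.80% and 1.32%. The endothelial share is taken as the background of a class that should lack these transcripts. Pooled over sets, the Cox6a2-led myeloid cells were at 30.1% for Mobp, 2.03% for Mog and 8.05% for Cnp. The endothelial intervals were 0.360% to 3.33% for Mog and 1.82% to 6.38% for Cnp. They cover counting error over pooled cells only and do not decide whether the classes differ. Among sets with at least 20 cells of both classes, the mean 6-gene sum was higher in Cox6a2-led than endothelial cells in A (7.02 against 5.23), C (6.11 against 5.23) and F (4.49 against 2.77). It was lower in B (4.99 against 6.45) and D (5.25 against 7.09). High values were not confined to immune cells, since in set A the mean Mbp value over the 36 cells of the pericyte or smooth muscle cell-like class was 16.1, while 78 astrocyte-like cells of the set had a mean of 12.4. The summed level of the 28 oligodendrocyte markers was 5.86 in Apoe-high myeloid, 8.45 in pericyte or smooth muscle cell-like, 5.48 in astrocyte-like, 3.42 in homeostatic microglia-like, 2.30 in endothelial and 1.04 in T cell or NK cell-like cells. Of the 28 markers, 0 were listed at 0 in the Apoe-high myeloid, 1 in the endothelial, 8 in the pericyte or smooth muscle cell-like and 9 in the T cell or NK cell-like cells. Within set D, Mobp was above 0 in 49.6% of homeostatic microglia-like and 33.3% of endothelial cells, while its mean was 1.05 and 1.24, so the pooled order did not hold for the means there. Whether the RNA was free, engulfed or from cells joined in 1 droplet was not tested.

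The spread over single cells differed between classes. In Apoe-high myeloid cells the 5th, 50th and 95th percentiles of Mbp were 6, 12 and 21, and 5180 of 5182 cells had a value. In endothelial cells they were 0, 3 and 16.9, and in homeostatic microglia-like cells 0, 5 and 24. The variance of Mbp was 1.86 times its mean in Apoe-high myeloid and 1.88 times in macrophage or monocyte-like cells. It was 7.5 times the mean in endothelial, 12.5 times in homeostatic microglia-like and 58.5 times in oligodendrocyte-like cells. Within set A the factor was 1.79 in Apoe-high myeloid and 7.27 in endothelial cells. Of the cells outside the oligodendrocyte-like cluster, 198 (1.54%) reached its median Mbp value of 28.

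**Figure D4:**
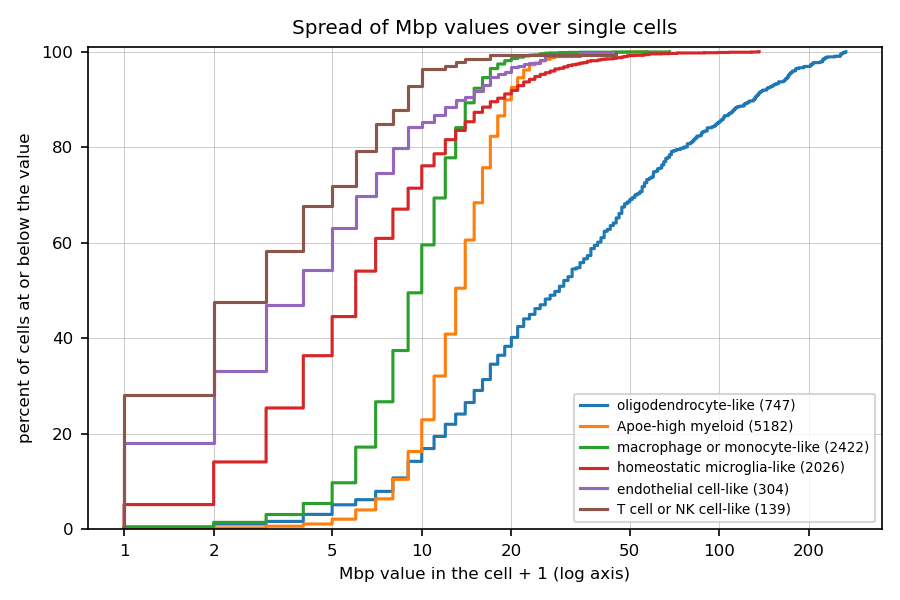
Percent of cells (y axis) whose Mbp value plus 1 lies at or below the value on the x axis (log scale), with 1 step curve for each of 6 classes of cells and the number of cells in brackets. The curve of the Apoe-high myeloid cells is steep between its 5th and 95th percentiles of 6 and 21, whereas the oligodendrocyte-like curve extends to 265.

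The genes did not make up the same share of the 6-gene sum everywhere. The assay tags the 3′ end of each transcript, so these shares are not corrected for transcript length and serve to compare classes with each other. Mbp took 85.0% of the sum over all cells, 86.6% in oligodendrocyte-like cells and 84.6% outside them. Mag, Mog, Cnp and Cldn11 together took 11.4% in the marker-rich and 0.312% in the marker-poor part, and 3.80% in the cells outside the cluster. Within a set, the share in the main myeloid class and in the endothelial cells was 4.6% and 4.39% in set A, 3.20% and 2.11% in set B, and 2.63% and 1.47% in set C. It was 4.91% and 5.56% in set D, 1.81% and 1.16% in set E, and 4.52% and 0% in set F. The myeloid share was the higher in 5 of 6 sets. The endothelial shares rest on 31 (F) to 74 (E) cells per set and on few values, so this count is only a description. Between sets the share of these genes ran from 1.89% (E) to 4.83% (D) over all cells outside the cluster. The order of the sets was not that of the oligodendrocyte-like cells, where set D had 3.03% and set E 5.73%.

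The value of Mobp per 100 of Mbp also differed by set. Outside the oligodendrocyte-like cells it was 19.4 in set D and 18.2 in set E, and 11.5 to 13.4 in sets A, B, C and F. In sets D and E it was 18.1 to 24.0 in every class with at least 20 cells, homeostatic microglia-like and endothelial cells included. In the oligodendrocyte-like cells of the same sets it was 10.3 and 12.5, within the 6.84 to 12.5 of the 6 sets.

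**Figure D5:**
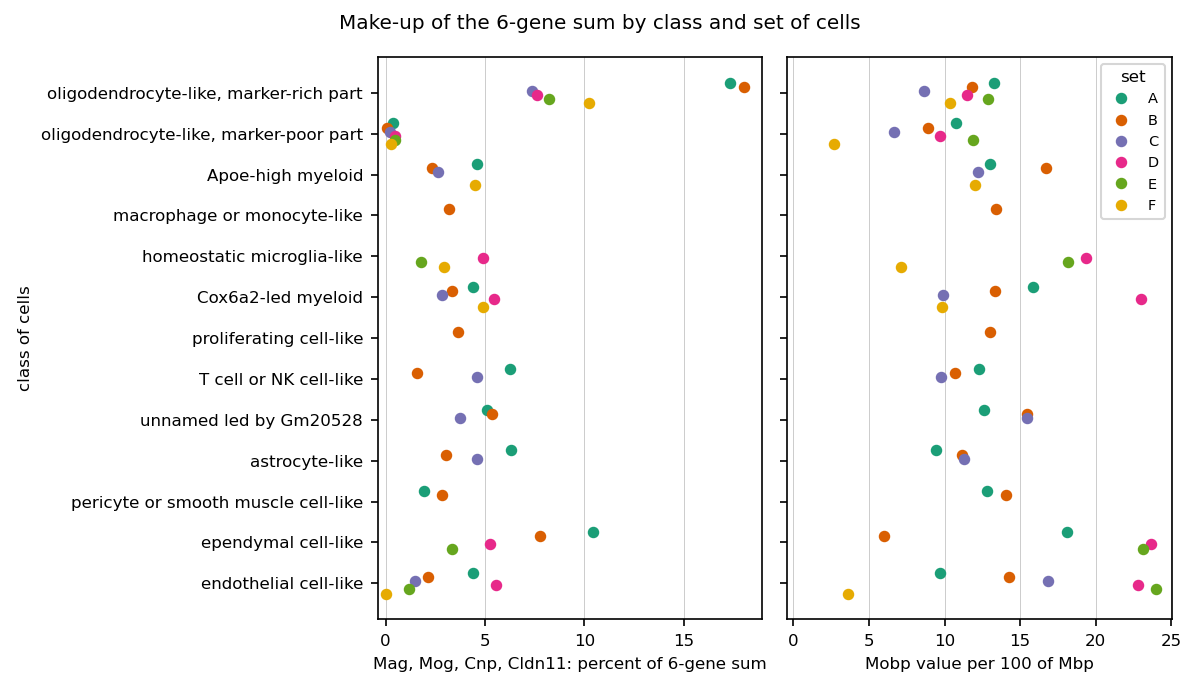
Summed value of Mag, Mog, Cnp and Cldn11 as a percent of the 6-gene sum (left) and value of Mobp per 100 of Mbp (right) for the parts of the oligodendrocyte-like cluster and the other classes of cells (y axis), with 1 point for each set A to F (at least 20 cells outside the oligodendrocyte-like parts). On the left the marker-rich points lie between 7.34 and 18 and the marker-poor points at or below 0.458, and the other classes mostly lie in between.

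Related lists put these levels in context. Of the 28 other myelin and oligodendrocyte genes, 28 were at least 2-fold higher in the oligodendrocyte-like than in the other cells and 25 had their highest class mean there. Since these genes named the cluster, the count is a description. Of the 22 sterol and lipid synthesis genes, 13 were at least 2-fold higher, among them Hmgcs1 at 11.7-fold, Gal3st1 (sulfatide synthesis) at 11.0-fold and Idi1 at 8.33-fold. Only 8 of the 22 had their highest class mean in the oligodendrocyte-like cells. No minimum mean was set for the list counts, whereas 12.3% of 3273 genes with 1 mean of at least 0.05 were 2-fold higher. Of the 3 peripheral myelin genes in the table, 0 were at least 2-fold higher, and Pmp22 was at 0.786 of its level in the other cells. Of 13 phagocytosis and lysosome genes, 0 were at least 2-fold higher, and Lamp1 alone had its highest class mean in the oligodendrocyte-like cells. In the reverse direction, Tyrobp, a myeloid adaptor gene, was above 0 in 44.8% of oligodendrocyte-like and 89.7% of the other cells, and the source of these values was not tested.

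The pattern over 41 units of class and set (at least 20 cells each) was compared between the 6-gene sum and 1878 genes with a mean of at least 0.05 in oligodendrocyte-like cells. Among the 10 highest Pearson correlations of log2(mean + 0.01) were those of S100b (0.92), Fth1 (0.91), Ermn (0.89), Gpm6b (0.88), Ppp1r14a (0.88), Bcas1 (0.87), Pdlim2 (0.87), Gnai1 (0.86) and Cryab (0.86). These are descriptions, as the units share sets and cells of 1 table. Without the 6 oligodendrocyte-like units the values of these genes over 35 units were 0.58 (Pdlim2) to 0.79 (Bcas1). Of the members, Mobp had 0.92 with the sum, Mag 0.85, Cnp 0.79, Cldn11 0.79 and Mog 0.77, and Mbp, which makes up most of the sum, had 1.00.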

How the data were processed

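Per the labels and the study's methods, the authors ran Cell Ranger 7.1.0 against GRCm38, counting intronic reads, then used Seurat 4.3.0.1 to merge libraries and filter cells. The deposited table holds a score for each gene and cell: whole numbers whose derivation from UMIs is not stated. Intervals are exact binomial 95% intervals over cells.

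The 6 genes, the lists and the motifs were chosen with earlier results of these data known. Clusters were computed with Seurat 5.3.0 (R 4.3.3): log normalization, 5000 variable features without the 6 genes, 50 principal components, 20 neighbours and Louvain resolution 0.3. A cluster was named for the type with most markers among its 10 leading genes, if at least 3 markers were 2-fold higher. With no marker among them 10 were needed, and with 1 or fewer also 40% of the markers. Clusters with Tyrobp in 80% of cells or more took only myeloid or cycling names. This rule was set after the clusters were seen, as was the split into parts. Scrublet (scanpy 1.11.5), run per set, called 67 cells (0.492%), under the share at which it can be relied on, and these cells were kept.

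A gene was compared between classes where both means were above 0 and 1 was at least 0.05, and within sets where both were. The ranking of ratios was tested on simulated data. The text names the 6 genes, list members, up to 5 leading genes per class and the 10 genes most alike in pattern. The table was 1 pooled sample, so no p-value was computed. Planned protein sequences were not used here. Some list genes are not reported here by name. Alternatives were a resolution of 1.0, 2000 variable features, the 6 genes kept among the features, the stated filters applied to the deposited values (12556 cells), doublet calls left out, a value of at least 2, scaling to 10000 per cell and leaving out each set.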

Additional observations from a re-analysis of the deposited data

How the results depend on the processing

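The share of oligodendrocyte-like cells with a value stayed at its level under each alternative run. Shares outside them depend on what counts as a value. With a value of at least 2, the share of cells with any of the 6 genes was 90.2% outside the oligodendrocyte-like cells, 87.2% in homeostatic microglia-like, 94.2% in other myeloid (97.5% otherwise) and 67.8% in endothelial cells (85.5% otherwise), the share with 3 or more genes was 1.52%, and Mbp made up 89.0% of the sum. After thinning to the lowest total (an alternative added with the values known), the same 4 shares were 93.9%, 92.7%, 96.5% and 77.0%, and 14.8% had 3 or more genes. Within the stated filters, the share outside was 96.5% and that with 3 or more genes 24.8%. Leaving out 1 set at a time gave 94.7% to 96.9% outside, 95.2% to 98.2% in homeostatic microglia-like, 96.1% to 98.3% in other myeloid cells and 15.8% (without A) to 27.4% (without B) with 3 or more genes. At a resolution of 1.0 the oligodendrocyte-like cells were the marker-rich cells, so the mean of Mbp was 26.1 in place of 48.1 and that of Cnp 1.80 in place of 1.29. Comparing the 247 oligodendrocyte-like cells of lowest marker sum with the 253 of highest, also added later, gave a ratio of 3.93 for Mbp and 0.132 for the other 4 genes summed (3.82 and 0.0907 between the parts). With 2000 variable features and a resolution of 1.0 the cluster did not split this way. Over the highest mean of any other cluster, the oligodendrocyte-like mean fell from 3.74-fold to 0.263-fold for Mbp and from 2.86-fold to 0.340-fold for Mobp at a resolution of 1.0, where the marker-poor cells form a cluster outside it. For the other 4 genes, and for all 6 under the other clusterings, it stayed above 1. With 1 of both means at 0.05 sufficient, 2 of 5 members were at least 2-fold higher in the macrophage or monocyte-like cells of set B (0 of 3 with both) and 1 of 4 in the homeostatic microglia-like cells of set E (0 of 2), through members that reach 0.05 in the myeloid cells alone. Depth is unknown, which limits every share. No paired analysis was possible because cell names hold no library's replicate number. Comparisons within a set of cells stand in the report.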

Other observations

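Smaller groups of cells also held values of the 6 genes. With 2000 variable features and a resolution of 1.0, 67 cells were oligodendrocyte precursor-like, 64 of them within the oligodendrocyte-like cluster. Precursors are the dividing cells from which oligodendrocytes form. Their mean Cnp value was 4.42 and that of Cldn11 1.67, above the marker-rich part of the cluster (1.80 and 0.802), while their mean Mbp value was 14.7 against 26.1. Mag, Mog, Cnp and Cldn11 made up 30.2% of their 6-gene sum.

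At a resolution of 1.0 with 5000 variable features, 67 cells were Schwann cell-like, the myelinating cells of peripheral nerve, which also use Mbp. Of them, 0 were in the oligodendrocyte-like cluster. Their mean Mbp value was 12.3, close to the 12.5 of the astrocyte-like cluster, and that of Mag was 0.299, against 0.144.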
